A study of Mus musculus with 6 samples.

Results

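Apart from Rpl32l and Rps4l, which had no annotated coding sequence, the genes examined here encode proteins of the cytosolic ribosome. They were taken from the deposited table by symbol: Rpl or Rps followed by digits and at most 1 of the letters x, l, a or y, together with Rplp0, Rplp1, Rplp2 and Rpsa, leaving out pseudogene symbols and the Rps6k kinases. This gave 79 of 21512 genes, 47 of the large subunit and 32 of the small subunit. Whole liver had been sequenced from 6 C57BL/6J mice, all fed a high-fat diet and given carbon tetrachloride (HFD/CCl4), a model of steatohepatitis with fibrosis, for 12 weeks. Of these, 3 mice received an antibody against PD-1, an inhibitory receptor of activated T cells, and 3 received an isotype control antibody, every 3 days over that period. Both groups carried the diet and the carbon tetrachloride, and no group free of them was analysed here. The age and sex of the mice are not given in the sources used here. In 2 of the anti-PD-1 libraries (replicates 2 and 3) the label for treatment has a different number behind "PD". Titles and design name PD-1, so the libraries were grouped by title. Libraries were made from total RNA after depletion of ribosomal RNA with a directional kit, so the ribosomal RNA itself was not measured.

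A cytosolic ribosome joins a small subunit, which holds the mRNA and reads its codons, to a large subunit, which forms the peptide bond and passes the new chain out through a tunnel. Each protein is needed in about the same number of copies as the ribosomal RNAs, and liver, which secretes most plasma proteins, is rich in ribosomes. Many of these mRNAs begin with a cytosine followed by a run of pyrimidines, the terminal oligopyrimidine (TOP) motif, through which mTORC1 and the La-related protein Larp1 set their translation. That control acts largely on translation, which RNA levels do not show.

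Each library held 15528364 to 20779319 recovered reads, and a limit of 3 reads corresponded to 0.144 to 0.2 normalised units. The 79 genes together took 0.692 to 0.854% of the reads of a library. Of these genes, 78 passed the filter of at least 1 unit in at least 3 libraries. The exception was Rpl32l, a sequence relative of Rpl32, which had at most 2 reads in any library. The labelled tissue was checked on 12 hepatocyte markers, whose summed values were 99502, 114188 and 125214 units in anti-PD-1 replicates 1 to 3 and 130690, 103470 and 120962 units in isotype control replicates 1 to 3, with none at 0. The summed values of 18 leukocyte and T cell markers were 567, 251 and 274 units in anti-PD-1 replicates 1 to 3, against 282, 227 and 198 units in isotype control replicates 1 to 3. None of those 18 markers was at 0 in all libraries, and 7 passed the filter. The 12 monocyte and macrophage markers summed to 1294, 416 and 500.1 units in anti-PD-1 replicates 1 to 3, against 764, 387 and 422 units in isotype control replicates 1 to 3. Lyz2 alone gave 768 of the 1294 units in anti-PD-1 replicate 1. Of the 11 tested markers of that list 0 were called. At an unadjusted limma p under 0.05, 0 were higher, against 5.04% of all tested genes. At that level 4 were lower (Timd4, Marco, Clec4f and Vsig4), against 6.24% of all tested genes. In 3 of these every anti-PD-1 library lay below every isotype control library, against 9.98% of all tested genes. Anti-PD-1 replicate 1 thus had the highest sum of both lists, and its part in the values below was not tested except by leaving it out. In whole liver, fewer cells of a type and less RNA per cell cannot be told apart.

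The TOP motif is read at the first transcribed base, so the starts of 7 of the genes named below are shown here. They are examples and do not reflect how often a stretch occurs among the members. Each window holds 10 bases before the RefSeq start and 20 from it, 5′ to 3′ on the gene's strand, in GRCm38.p6. Capitals mark an unbroken stretch of 5 or more C and T counted from a C on the gene's strand, taking the C nearest to the start within 10 bases on either side. Letters just before the capitals can also be C or T and are not counted, since the count runs forward from that C.
Rps6 (chr4:86857348-86857377, minus strand): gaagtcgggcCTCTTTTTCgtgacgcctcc
Rplp2 (chr7:141447641-141447670, plus strand): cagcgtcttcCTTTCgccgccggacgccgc
Rps27 (chr3:90213629-90213658, minus strand): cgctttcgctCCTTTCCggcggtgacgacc
Rpl35a (chr16:33056472-33056501, plus strand): gcttgccttcCTCTTTCCgccatcttggcg
Rpl27a (chr7:109519185-109519214, plus strand): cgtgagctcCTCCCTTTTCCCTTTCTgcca
Rpl12 (chr2:32961702-32961731, plus strand): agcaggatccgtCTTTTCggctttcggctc
Rpl37a (chr1:72711250-72711279, plus strand): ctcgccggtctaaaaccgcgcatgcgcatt

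In Rps6, Rplp2, Rps27 and Rpl35a the stretch is counted from an annotated start itself. In Rpl27a it is counted from 1 base before the start and in Rpl12 from 2 bases after it. Rpl35a had 3 annotated starts, and a start with such a stretch was shown in preference to others. For Rpl37a no such stretch was found. The same held for Rplp0, Rpl4, Rpl41, Rps28, Rpl5, Rpl11, Rpl10, Rps4x and Rpsa, whose windows are not shown. RefSeq gave a window for 58 of the 79 genes. A gene with several annotated starts was counted if any of them matched. On that count, the first base was a C that began such a stretch in 14 of those 58 (24.1%). Among other genes of the table, 389 of 13187 (2.95%) had such a stretch there. Within 10 bases of the start, 36 of 58 (62.1%) had one, against 4852 of 13187 others (36.8%). A match is a description of the letters in the annotated window, which may differ from the start used in liver. The 13 tested members with a stretch from the start had a median log2 fold change of -0.024 and 4 of 13 were positive, against a median of 0.051 and 29 of 44 positive among those without.

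A second set of sequences is shown because it bears on how reads were assigned. Ribosomal protein mRNAs have been copied back into the genome many times, and a read from letters that 2 genes share can be assigned to either. The first 90 coding bases below, with the start codon in capitals, are from GENCODE M21 transcripts (GRCm38) and occur unaltered in both genes named on each line.
Rpl12 and Gm10275: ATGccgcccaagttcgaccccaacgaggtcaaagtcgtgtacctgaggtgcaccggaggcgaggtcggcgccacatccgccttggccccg
Rpl5 and Gm15500: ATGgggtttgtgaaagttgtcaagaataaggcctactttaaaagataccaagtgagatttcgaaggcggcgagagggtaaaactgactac
Rpl10 and Rpl10-ps3: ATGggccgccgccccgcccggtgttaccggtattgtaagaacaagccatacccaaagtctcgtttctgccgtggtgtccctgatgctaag

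Over all 79 genes, the ribosomal protein mRNAs were about as abundant after anti-PD-1 as after the isotype control. Their summed level was 7828, 7157 and 8607 units in anti-PD-1 replicates 1 to 3, against 7265, 6665 and 8776 units in isotype control replicates 1 to 3. The groups overlapped, with isotype control replicate 3 highest and isotype control replicate 2 lowest. The means were 7864 ± 726 units with anti-PD-1 and 7569 ± 1088 units with the isotype control (SD, n = 3 each), a fold of 1.04, and the difference was smaller than the SD of either group. The large subunit genes summed to 4445, 4056 and 4887 units with anti-PD-1, against 4085, 3767 and 4952 units with the isotype control. The small subunit genes summed to 3383, 3101 and 3720 units with anti-PD-1, against 3180, 2899 and 3824 units with the isotype control. Both subunits therefore gave the same order of libraries as the total.

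No ribosomal protein gene passed the test. By limma with Benjamini-Hochberg adjustment over all 13990 tested genes, 0 of 78 were called higher and 0 of 78 lower, and adjusted p ran from 0.269 to 0.997. Over all tested genes the test called 1 gene higher (0.00715%) and 0 lower (0%). At an unadjusted p under 0.05, 2 members were higher, Rpl12 and Rps6, against 5.04% of all tested genes. In the other direction 1 member, Rpl37a, passed that level, against 6.24% of all tested genes. In 3 members, Rpl12, Rps6 and Rplp0, every anti-PD-1 library lay above every isotype control library, against 7.13% of all tested genes. Rpl37a was the 1 member whose groups separated the other way, against 9.98% of all tested genes. These shares of the members are below those of all tested genes in each case. edgeR's quasi-likelihood test called 0 members in either direction, against 1 of all tested genes higher (0.00715%) and 0 lower (0%). At an unadjusted p under 0.05, edgeR had 1 member higher, against 5.45% of all tested genes, and 1 lower, against 6.15%. DESeq2 called 1 member higher, Rpl12, against 1.08% of all tested genes, and 0 lower, against 0.786%. With the replicate number as a block, 0 members were called in either direction, although over all tested genes the calls numbered 27 higher (0.193%) and 13 lower (0.0929%).

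The median log2 fold change of the 78 tested members was 0.046, with 48 positive, against 0.0027 and 7062 positive of 13990 tested genes. The large subunit genes had a median of 0.054 with 30 of 46 positive, and the small subunit genes 0.034 with 18 of 32 positive. These medians rest on single libraries. Dropping anti-PD-1 replicate 1 gave a members' median of 0.057, and dropping anti-PD-1 replicate 2 gave 0.14. When anti-PD-1 replicate 3 was dropped the median was -0.045, with 31 of 78 positive. Dropping isotype control replicate 1 gave 0.018, while dropping isotype control replicate 2 gave -0.043, with 32 of 78 positive. When isotype control replicate 3 was dropped the median was 0.18, with 71 of 78 positive. The sign of the members' median was thus negative without anti-PD-1 replicate 3 or isotype control replicate 2 and positive in the other 4 cases.

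**Figure D1:**
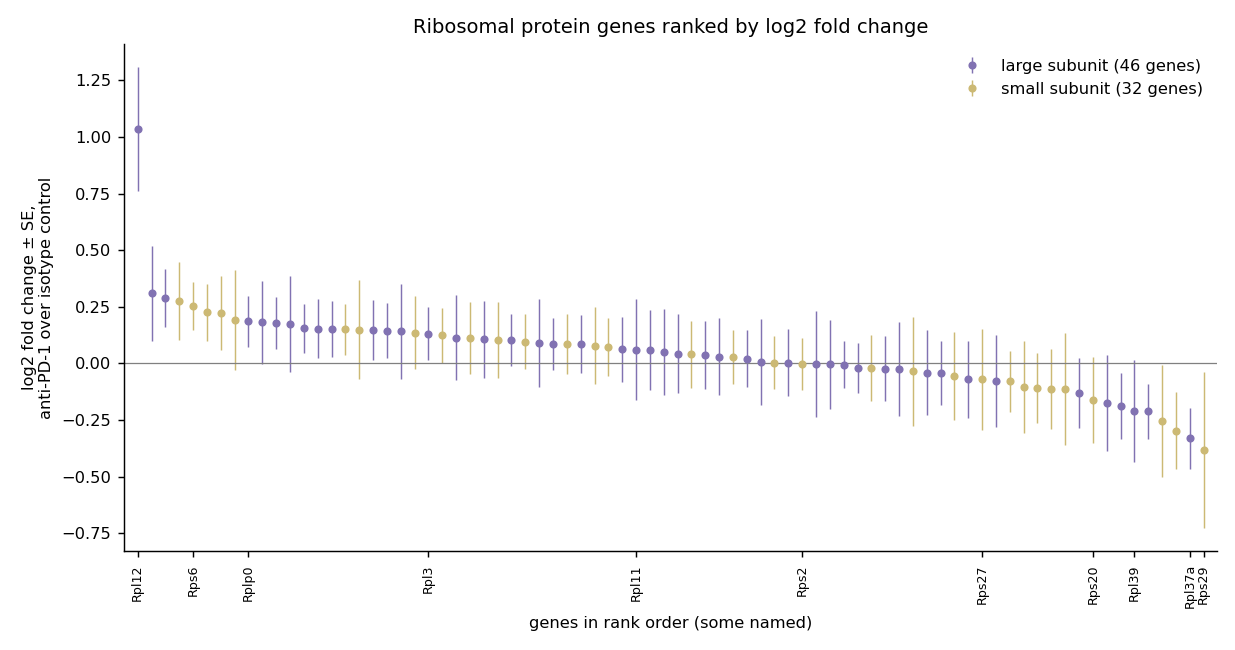
log2 fold change of each of the 78 tested ribosomal protein genes in rank order, with a few named, anti-PD-1 over isotype control, on the log2(value + 0.5) scale, with its standard error from limma. Values run from -0.38 (Rps29) to 1.03 (Rpl12), most lie within 0.4 of 0, and none passed the test.

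The members moved together from library to library within both groups. The median deviation of the 78 genes from their isotype control mean, on the log2 scale, was 0.082, -0.11 and 0.19 in anti-PD-1 replicates 1 to 3, against -0.069, -0.19 and 0.26 in isotype control replicates 1 to 3. The same median over all tested genes stayed between -0.039 and 0.011. Each group thus held a library with high and a library with low ribosomal protein values. Isotype control replicate 3 had the highest value of the 6 libraries in 46 of 78 members and anti-PD-1 replicate 3 in 29. Isotype control replicate 2 had the lowest in 42 and anti-PD-1 replicate 2 in 18.

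**Figure D2:**
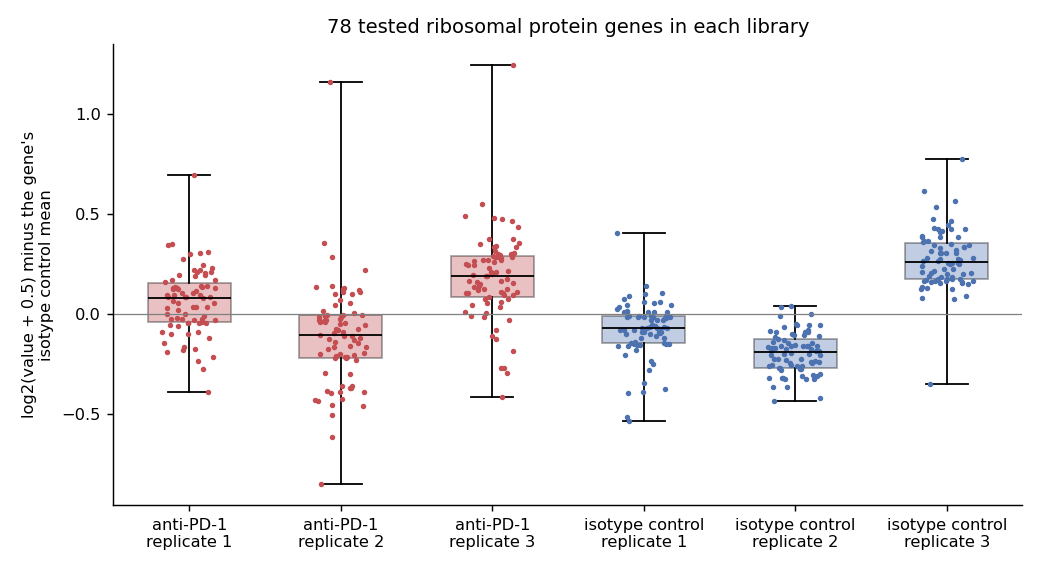
Deviation of each tested ribosomal protein gene from its isotype control mean (log2 scale) in each of the 6 libraries, anti-PD-1 libraries on the left, with a point for each gene, a box for the median and quartiles and whiskers to the lowest and highest gene. The medians are highest in isotype control replicate 3 (0.26) and anti-PD-1 replicate 3 (0.19) and lowest in isotype control replicate 2 (-0.19) and anti-PD-1 replicate 2 (-0.11).

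Across the 6 libraries, the Pearson correlation of a member with the mean log2 value of the members, itself included, had a median of 0.855, and 53 of 78 members exceeded 0.8, against 2.97% of all tested genes. The libraries share their preparation and depth with both sides of this measure, so it describes these 6 libraries only. Rps4l, a sequence relative of Rps4x with low values and no annotated coding sequence, followed the others least, at -0.61. Its values were 6.58, 7.06 and 5.59 units with anti-PD-1, against 7.72, 5.47 and 4.37 units with the isotype control, so it was lowest in isotype control replicate 3, where 46 other members were highest. Among the non-members most like the members' mean by the same correlation were Sem1 (0.99), Npm1 (0.988), Cmss1 (0.986) and Hnrnpa0 (0.984). Npm1, a nucleolar chaperone of ribosome assembly, had 96.0, 78.8 and 104 units with anti-PD-1, against 82.2, 78.8 and 113 units with the isotype control.

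The stalk of the large subunit recruits the elongation factors and is built on Rplp0, with Rplp1 and Rplp2 as its acidic arms and Rpl12 beside its base. Rplp0 had 273, 269.5 and 306 units with anti-PD-1, against 259, 223 and 265 units with the isotype control. The groups did not overlap, by a margin of a few units between anti-PD-1 replicate 2 and isotype control replicate 3, and limma gave a log2 fold change of 0.19 ± 0.11 (SE) with adjusted p = 0.572. Rplp1 had 133, 115 and 140 units with anti-PD-1, against 127, 116 and 160 units with the isotype control. Rplp2 had 31.4, 26.8 and 34.4 units with anti-PD-1, against 26.7, 24.7 and 39.7 units with the isotype control. Rplp1 and Rplp2 overlapped between the groups, with the highest value in isotype control replicate 3 for both.

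Rpl12 was the member with the largest fold change. It had 18.3, 25.6 and 27.1 units with anti-PD-1, against 8.47, 9.36 and 17.3 units with the isotype control, from 382, 384 and 524 reads with anti-PD-1 and 157, 173 and 345 reads with the isotype control. Every anti-PD-1 library was above every isotype control library, though anti-PD-1 replicate 1 and isotype control replicate 3 were close. The means were 23.7 ± 4.68 units with anti-PD-1 and 11.7 ± 4.89 units with the isotype control (SD, n = 3 each), a log2 fold change of 1.03 ± 0.27 (SE). It did not pass the test by limma (adjusted p = 0.269), edgeR (adjusted p = 0.291) or limma with the replicate block (adjusted p = 0.0897), and passed by DESeq2 (adjusted p = 0.039). Leaving out each library in turn gave log2 fold changes of 0.85 to 1.34 and limma adjusted p of 0.140 to 0.681.

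Rpl12 has a near-identical copy whose listed level was higher than its own. Gm10275, a transcribed processed pseudogene on chromosome 10, matches the Rpl12 transcript at 100% over 634 bases. Gm10275 had 141, 124 and 152 units with anti-PD-1, against 113, 99.6 and 133 units with the isotype control, a log2 fold change of 0.27 (limma adjusted p = 0.494). That level exceeded the one of Rpl12 in all 6 libraries. Rpl12 together with its 2 copies had 160, 150 and 180 units with anti-PD-1, against 122, 109 and 151 units with the isotype control. These groups overlapped, since isotype control replicate 3 was above anti-PD-1 replicate 2. The combined log2 fold change was 0.36 (limma adjusted p = 0.397), and how reads of shared sequence were divided between Rpl12 and its copies was not tested.

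Other members also had near-identical copies in the table. A near-identical copy was taken as a gene of the table with at least 95% identity over at least 200 bases or 80% of the coding length. Of 79 members, 49 had at least 1 such copy, and 30 had none. The copies held over 50% of the combined level in 4 members: Rpl5 (88.5%), Rpl12 (87.8%), Rpl10 (87.7%) and Rpl21 (73.0%). They held 10 to 50% in 11 members, among them Rpl27a (37.5%), Rps20 (34.1%) and Rpl11 (29.8%), and under 10% in 34. For the first 4 genes, and in lesser part for the 11, the listed level is uncertain. How the authors' counting assigned reads of shared sequence was not tested. With copies added, log2 fold changes went from 0.31 to 0.28 (Rpl27a), from -0.16 to -0.20 (Rps20) and from 0.061 to 0.15 (Rpl11). Adding copies moved the median log2 fold change of the members to 0.051, with 49 of 78 positive, an alternative chosen after the data were seen. Members with a copy had a median log2 fold change of 0.040 (49 tested) and members without a copy 0.063 (29 tested).

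**Figure D3:**
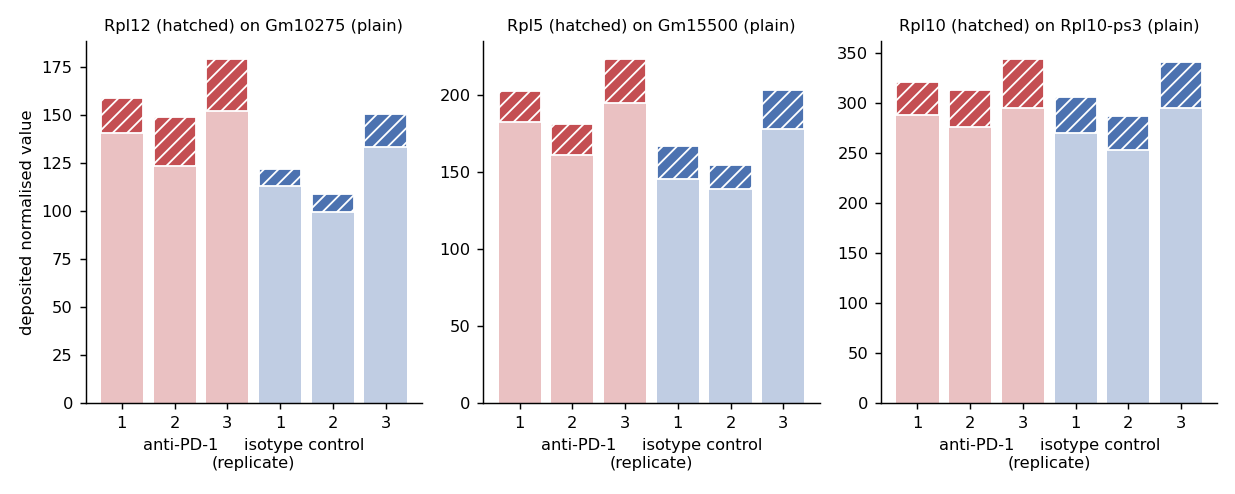
Deposited normalised value (stacked bars from 0) of Rpl12, Rpl5 and Rpl10 (hatched) on top of the value of a near-identical copy, Gm10275, Gm15500 and Rpl10-ps3 (plain), in each anti-PD-1 library (red, left) and isotype control library (blue, right). The copy is the larger part of every bar, for example 141 units of Gm10275 under 18.3 units of Rpl12 in anti-PD-1 replicate 1.

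Rpl5 and Rpl11 bind the 5S ribosomal RNA and, outside the ribosome, the p53 ligase Mdm2. Rpl5 had 19.8, 20.1 and 28.5 units with anti-PD-1, against 21.2, 15.7 and 25.2 units with the isotype control. Gm15500, its copy on chromosome 7 with 100% identity over 1018 bases, had 183, 161 and 195 units with anti-PD-1, against 145, 139 and 178 units with the isotype control (log2 fold change 0.22, limma adjusted p = 0.553). Rpl11 had 55.6, 53.4 and 72.4 units with anti-PD-1, against 57.1, 42.3 and 78.3 units with the isotype control. All 3 genes overlapped between the groups.

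Rpl10 completes the large subunit late in its maturation. It had 33.4, 37.2 and 49.0 units with anti-PD-1, against 35.6, 34.1 and 45.7 units with the isotype control. Rpl10-ps3, listed on chromosome 9 with 100% identity over 740 bases, had 288, 276 and 295 units with anti-PD-1, against 271, 253 and 295 units with the isotype control. Rpl21 together with its 9 copies had 129, 101 and 125 units with anti-PD-1, against 135, 131 and 156 units with the isotype control. These groups did not overlap, though anti-PD-1 replicate 1 and isotype control replicate 2 were close. Without copies added, 9.98% of all tested genes separated in that direction. The combined log2 fold change was -0.25, against -0.0048 for Rpl21 alone. For Rpl10 the log2 fold change was 0.071 with its copies and 0.043 alone, and for Rpl5 it was 0.22 with its copies and 0.14 alone, differences smaller than the standard error of either gene (0.17 for Rpl10 and 0.21 for Rpl5).

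In the core and tunnel of the large subunit, Rpl3 lies near the peptidyl transferase centre and Rpl4 and Rpl39 line the exit tunnel. Rpl3 had 208, 201 and 220 units with anti-PD-1, against 197, 166 and 214 units with the isotype control. Rpl4 had 298, 303 and 334 units with anti-PD-1, against 259, 261 and 310 units with the isotype control, a log2 fold change of 0.18 ± 0.11 (SE; limma adjusted p = 0.594). The isotype control libraries of Rpl4 were lower except replicate 3, which lay between the anti-PD-1 libraries. Rpl39 had 44.6, 27.6 and 40.4 units with anti-PD-1, against 39.2, 35.2 and 56.1 units with the isotype control, a log2 fold change of -0.21 ± 0.22 (SE; limma adjusted p = 0.756). Over the 9 listed proteins of the tunnel and its rim the median log2 fold change was 0.059, with 6 positive and 0 called in either direction.

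Among the other large subunit genes, Rpl27a had 41.5, 52.6 and 60.3 units with anti-PD-1, against 37.1, 33.6 and 55.1 units with the isotype control (log2 fold change 0.31 ± 0.21; limma adjusted p = 0.613). Rpl22, which in mouse is required for the development of alpha-beta T cells, had 36.0, 34.4 and 45.4 units with anti-PD-1, against 30.8, 34.5 and 46.8 units with the isotype control. Those Rpl22 values overlapped fully.

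Rpl37a, a zinc-binding protein of the large subunit, was the member whose anti-PD-1 libraries all lay below the isotype control libraries. It had 93.7, 80.1 and 89.7 units with anti-PD-1, against 103, 97.9 and 132 units with the isotype control. The means were 87.8 ± 6.997 units with anti-PD-1 and 111 ± 18.5 units with the isotype control (SD, n = 3 each), and the log2 fold change was -0.33 ± 0.13 (SE; limma adjusted p = 0.419). Rpl41, the smallest ribosomal protein, had 155, 123 and 142 units with anti-PD-1, against 152, 155 and 180 units with the isotype control (log2 fold change -0.21 ± 0.12; limma adjusted p = 0.558). Rpl35a, mutated in some patients with Diamond-Blackfan anaemia, had 38.8, 34.8 and 39.4 units with anti-PD-1, against 38.7, 38.4 and 53.1 units with the isotype control. For both, isotype control replicate 3 was the highest library.

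On the small subunit, Rps6 is the substrate of the S6 kinases downstream of mTORC1. It had 241, 244 and 265 units with anti-PD-1, against 208, 192 and 230 units with the isotype control. The groups did not overlap. The means were 250 ± 13.0 units with anti-PD-1 and 210 ± 18.6 units with the isotype control (SD, n = 3 each), and the log2 fold change of 0.25 ± 0.11 (SE) did not pass the test (limma adjusted p = 0.430).

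Rps2 lies at the mRNA entry and was the most abundant member, with 400, 462 and 483 units with anti-PD-1, against 439, 433 and 474 units with the isotype control. Its log2 fold change was -0.0037 ± 0.12 (SE; limma adjusted p = 0.995). At the mRNA exit, Rpsa, also known as the laminin receptor, had 207, 183 and 224 units with anti-PD-1, against 175, 177 and 200 units with the isotype control. Rps28, also near the exit, had 22.6, 18.4 and 20.02 units with anti-PD-1, against 16.6, 24.2 and 35.4 units with the isotype control. Rps2, Rpsa and Rps28 overlapped between groups, and the 5 listed mRNA exit proteins had a median log2 fold change of -0.080 with 2 positive.

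Among other small subunit genes, Rps4x, encoded on the X chromosome, had 184, 160 and 192 units with anti-PD-1, against 165, 145 and 183 units with the isotype control. Its groups overlapped, with a log2 fold change of 0.12 (limma adjusted p = 0.736). Rps20 had 32.6, 28.6 and 38.0 units with anti-PD-1, against 34.8, 29.7 and 48.2 units with the isotype control. Rps29, a zinc-binding protein, had 32.4, 18.1 and 27.3 units with anti-PD-1, against 23.0, 27.5 and 57.0 units with the isotype control. The Rps29 log2 fold change of -0.38 ± 0.34 (SE; limma adjusted p = 0.705) was the lowest of the members, and without isotype control replicate 3 it was 0.0024.

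Rps19 is the gene most often mutated in Diamond-Blackfan anaemia. It had 69.2, 60.8 and 68.6 units with anti-PD-1, against 69.1, 51.8 and 74.2 units with the isotype control. The 17 listed genes mutated in that disease had a median log2 fold change of -0.0055, with 8 positive and 0 called. Rps27 and Rps27l are close paralogs, and in human cells RPS27L is a target of p53. Rps27l had 82.2, 82.4 and 99.9 units with anti-PD-1, against 119, 83.8 and 126 units with the isotype control, a log2 fold change of -0.30 ± 0.17 (SE; limma adjusted p = 0.550). Rps27 had 52.3, 31.2 and 46.4 units with anti-PD-1, against 37.7, 40.6 and 57.4 units with the isotype control (log2 fold change -0.07; limma adjusted p = 0.933). The difference between these paralogs was not tested.

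Rps27a is made as a fusion with ubiquitin, while Fau carries a ubiquitin-like part joined to a small subunit protein. Rps27a had 110, 98.7 and 120 units with anti-PD-1, against 93.6, 86.5 and 127 units with the isotype control. Fau encodes its ribosomal protein under a symbol the selection leaves out. Fau had 119, 115 and 117 units with anti-PD-1, against 89.2, 94.96 and 104 units with the isotype control (log2 fold change 0.29; limma adjusted p = 0.348). It did not pass the test, although every anti-PD-1 library lay above every isotype control library.

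Rack1, a scaffold on the head of the small subunit, and Rps3a1 are also outside the symbol rule. Rack1 had 185, 179 and 193 units with anti-PD-1, against 163, 153 and 183 units with the isotype control. Rps3a1 had 191, 167 and 209 units with anti-PD-1, against 167, 166 and 186 units with the isotype control. Both overlapped. Of the 8 tested genes of this kind, 3 were positive, the median log2 fold change was -0.13, and 0 were called in either direction.

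The fold change of the members followed their length. Over 77 tested members with an annotated coding sequence, Spearman's correlation between coding length and log2 fold change was 0.624, a value across genes of the same libraries, which are not independent replicates. The 17 members under 350 coding bases had a median log2 fold change of -0.11, with 3 positive. Medians were 0.028 for the 31 members from 350 to below 500 bases (18 positive), 0.10 for the 16 from 500 to below 700 (14 positive) and 0.14 for the 13 from 700 to below 1300 (12 positive). Rpl37a, Rpl41, Rps28, Rps29 and Rpl39, named above with negative values, are among the short ones.

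Other genes of the same length classes showed part of this. Over 12367 other protein-coding genes of any length the same correlation was 0.091. Of them, 6699 had 1300 or more coding bases, longer than any member. This value and that of the members thus cover unlike length ranges. By class, the median log2 fold change of the other genes was -0.11 under 350 bases (421 genes, 140 positive) and -0.083 from 350 bases (610 genes). It was -0.033 from 500 (1098 genes), -0.0047 from 700 (3539 genes) and 0.013 from 1300 bases (6699 genes). The members and the other genes thus had nearly the same median in the shortest class, and the members lay above the others from 350 bases on.

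The relation with length also differed between libraries of 1 group. For this measure a member's deviation was taken from its mean over all 6 libraries, on the log2 scale. Spearman's correlation between coding length and that deviation was -0.095, 0.625 and 0.467 in anti-PD-1 replicates 1 to 3. In isotype control replicates 1 to 3 it was 0.075, -0.249 and -0.749. The shortest class was described by its median deviation from the isotype control mean, also on the log2 scale. That median was 0.0011, -0.37 and -0.0094 in anti-PD-1 replicates 1 to 3, against -0.15, -0.18 and 0.36 in isotype control replicates 1 to 3. Short members were therefore low in anti-PD-1 replicate 2 and high in isotype control replicate 3. The 421 other protein-coding genes under 350 bases had -0.12, -0.21 and -0.030 in anti-PD-1 replicates 1 to 3. In isotype control replicates 1 to 3 they had 0.014, -0.11 and 0.10. They too were lowest in anti-PD-1 replicate 2 and highest in isotype control replicate 3. For the members' fold change the correlation with length stayed positive when each library was dropped in turn. It was 0.709, 0.481 and 0.578 without anti-PD-1 replicates 1, 2 and 3 in turn, and 0.687, 0.633 and 0.416 without isotype control replicates 1, 2 and 3 in turn.

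**Figure D4:**
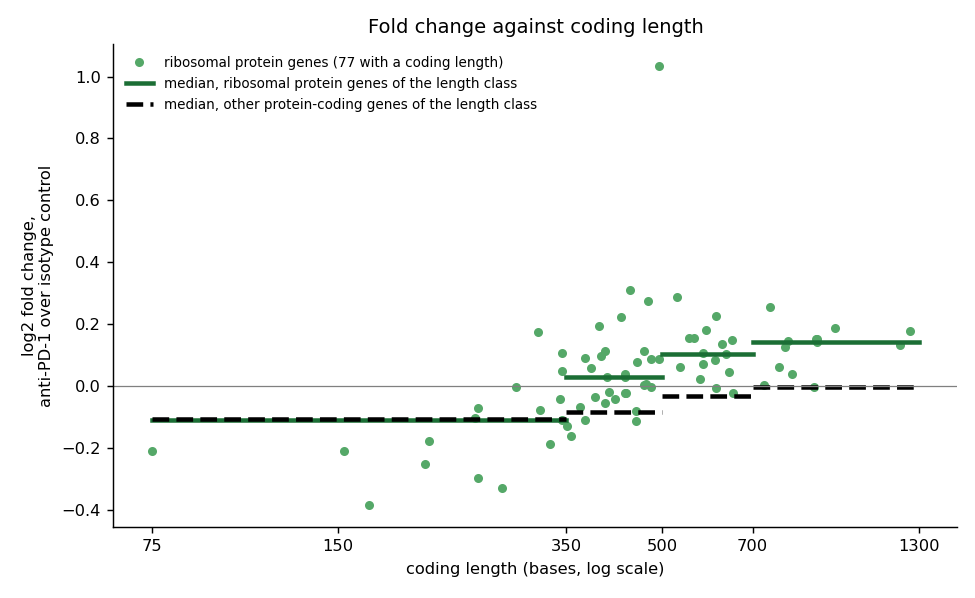
log2 fold change, anti-PD-1 over isotype control, against coding length (bases, log axis) for 77 ribosomal protein genes, with the median of the members and of other protein-coding genes in each length class. Members under 350 bases have a median of -0.11 and those from 700 to below 1300 bases 0.14, while the medians of other genes in the same classes run from -0.11 to -0.0047.

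Genes that work with the ribosome gave no calls either. Of 35 translation initiation factors 0 were called, 23 were positive and the median log2 fold change was 0.044. Eif2b4, a subunit of the exchange factor for eIF2, had 12.9, 12.6 and 15.1 units with anti-PD-1, against 18.4, 16.7 and 16.7 units with the isotype control, without overlap (log2 fold change -0.35; limma adjusted p = 0.373). Of 10 tested elongation and termination factors 0 were called, with a median of -0.0055. Eef2, the translocation factor, had 1060, 1379 and 1433 units with anti-PD-1, against 1087, 1094 and 1122 units with the isotype control (log2 fold change 0.22; limma adjusted p = 0.633). Anti-PD-1 replicate 1 lay below all isotype control libraries for Eef2. Eef1e1, a scaffold of the synthetase complex, had 5.24, 7.86 and 8.28 units with anti-PD-1, against 9.55, 7.20 and 9.90 units with the isotype control (log2 fold change -0.31; limma adjusted p = 0.617).

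Besides the ribosomal proteins, 17 other genes with TOP mRNAs had a median log2 fold change of 0.088, with 13 positive and 0 called. Pabpc1, the cytoplasmic poly(A)-binding protein, had 256, 260 and 295 units with anti-PD-1, against 210, 208 and 226 units with the isotype control, without overlap (log2 fold change 0.33; limma adjusted p = 0.316). Eif3h, a subunit of initiation factor eIF3, had 72.4, 75.8 and 81.8 units with anti-PD-1, against 65.7, 62.5 and 67.7 units with the isotype control, also without overlap (log2 fold change 0.23; limma adjusted p = 0.419). The 11 snoRNA host genes, whose spliced RNAs also often begin with a TOP motif, had a median of 0.30, with 8 positive and 0 called. Of these, Snhg15 had 5.38, 11.3 and 9.52 units with anti-PD-1, against 3.56, 3.68 and 5.78 units with the isotype control (log2 fold change 0.90; limma adjusted p = 0.347). The Snhg15 groups overlapped at anti-PD-1 replicate 1. Over the 11 host genes, the median log2 deviation from the isotype control mean was 0.17, 0.16 and 0.31 in anti-PD-1 replicates 1 to 3. In isotype control replicates 1 to 3 it was -0.31, -0.096 and 0.41, so isotype control replicate 3 was the highest library.

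Of 20 regulators of TOP mRNAs and mTORC1, 0 were called, 8 were positive and the median log2 fold change was -0.065, but 0.058 without anti-PD-1 replicate 1. The list mixes activators and inhibitors, so its median gives no direction for mTORC1. Sesn2, a stress-induced inhibitor of mTORC1, had 13.5, 14.0 and 14.5 units with anti-PD-1, against 8.15, 9.14 and 9.35 units with the isotype control. Its groups did not overlap, and its log2 fold change of 0.63 ± 0.12 (SE) did not pass the test (limma adjusted p = 0.215).

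For the making of ribosomes, the list of RNA polymerase I and its factors had 0 of 15 called, 7 positive and a median log2 fold change of -0.032. Ttf1, which terminates transcription of ribosomal DNA, had 5.72, 8.12 and 6.00 units with anti-PD-1, against 10.6, 11.4 and 8.80 units with the isotype control, without overlap (log2 fold change -0.61; limma adjusted p = 0.304). Of 95 assembly factors 0 were called, 50 were positive and the median was 0.0059. Nop2, a methyltransferase of the large subunit RNA, had 10.7, 9.05 and 9.93 units with anti-PD-1, against 15.2, 14.6 and 14.9 units with the isotype control (log2 fold change -0.57; limma adjusted p = 0.234). Nop58, a core protein of box C/D snoRNPs, had 19.3, 24.9 and 33.5 units with anti-PD-1, against 17.5, 15.6 and 17.5 units with the isotype control (log2 fold change 0.57; limma adjusted p = 0.348). Both separated the groups, in opposite directions.

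Of 20 cytosolic aminoacyl-tRNA synthetases 0 were called, 8 were positive and the median log2 fold change was -0.016. Eprs, the glutamyl-prolyl synthetase, had 361, 408 and 528 units with anti-PD-1, against 198, 257 and 243 units with the isotype control. Its groups did not overlap, and its log2 fold change of 0.88 ± 0.17 (SE) did not pass the test (limma adjusted p = 0.215). The 78 mitochondrial ribosomal protein genes, which build the separate ribosome of that organelle, had 0 called, 31 positive and a median of -0.054. Of these, Mrps6 had 4.37, 3.795 and 3.26 units with anti-PD-1, against 6.91, 4.76 and 6.54 units with the isotype control (log2 fold change -0.60; limma adjusted p = 0.348). The difference between the cytosolic and the mitochondrial medians was not tested.

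**Figure D5:**
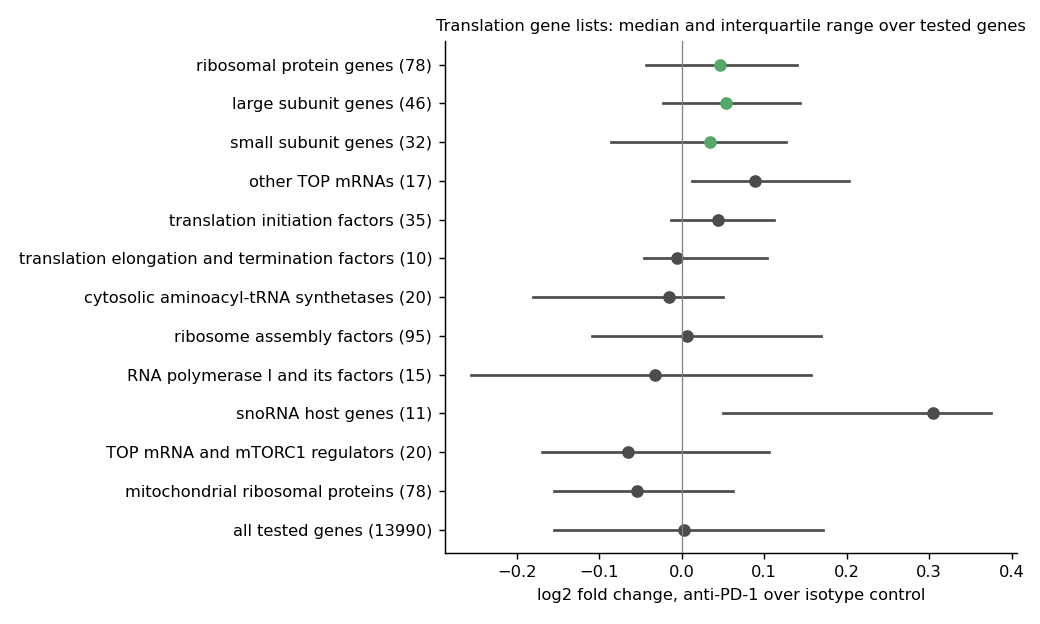
Median log2 fold change, anti-PD-1 over isotype control, of the ribosomal protein genes and of each list of related genes, with the quartiles of the genes. The medians of the subunits (0.054 and 0.034) lie near that of all tested genes (0.0027), and the snoRNA host genes have a median of 0.30 over 11 genes. For these host genes, isotype control replicate 3 was the library with the highest median deviation.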

How the data were processed

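The deposited table holds a normalised signal per gene and library for 6 mouse liver libraries. Per the submitters' processing notes, Trimmomatic 0.38, RSEM 1.3.0, Bowtie2, edgeR and the GRCm39 build were used, with no roles given. Every value of this deposited signal was a whole multiple of the worth of 1 read (100% of entries, tolerance 0.001 read), so whole reads were recovered. Gene symbols were matched for 21407 identifiers, and 105 had none. Members and lists were chosen with earlier results of these data known, so no list was tested.

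Values were compared as log2(value + 0.5) in limma 3.58.1 with an intensity trend (R 4.3.3), over the 13990 genes that reached 1 unit in 3 or more libraries, two-sided, with Benjamini-Hochberg adjustment at 0.05. Fold changes on that scale understate changes of low genes. The recovered reads were also tested with edgeR 4.0.16 and with DESeq2 1.42.0. The limma fit was tested on simulated counts. Copies were found with BLAST 2.17.0 in GENCODE M21 transcripts of the older GRCm38 build, and coding lengths come from there. That build is not the one of the files, so its coordinates are given for the RefSeq sequences alone.

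The rule for named genes takes the 8 members with the smallest p in each direction, the 5 most abundant members, a set fixed by role and, whatever their direction, the 2 genes with the smallest p of each other list (4 for assembly factors), of which the text gives a part. Replicate numbers were taken as pairing mice in the fit with the replicate block alone, and all other fits used no pairing. The reason was that deviations of libraries of the same number correlated at 0.149, 0.135 and 0.251. That pairing was thus chosen from these same data, and the calls with the block rest on it. The labels do not tie a number to a litter or day. Precision is limited by 3 mice a group, and the limit of 3 reads covers counting error only. Some genes under that naming rule are not reported here.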

Additional observations from a re-analysis of the deposited data

How the results depend on the processing

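Over all tested genes, limma called 1 gene higher and 0 lower, with a replicate block 27 higher and 13 lower, and DESeq2 151 higher and 110 lower. Leaving out each library gave 0 to 24 higher and 0 to 6 lower. Of the members, DESeq2 called 1 higher, and no other setting called any. The number of positive members, 48, was 31 to 71 when a library was left out. The median of the TOP mRNA and mTORC1 regulators was -0.12 to 0.058 without a library. That of RNA polymerase I and its factors was 0.036 with a filter of 5 units. Of 30 named members, 17 kept their sign in every setting, 11 lost it only without a library, and 2 also in another setting. The cause was not tested, and none of these was called. Without a library, log2 fold changes were -0.64 to 0.0024 (Rps29), -0.52 to 0.014 (Rps28), -0.31 to 0.031 (Rps20), -0.060 to 0.076 (Rps2), -0.14 to 0.089 (Rplp1), -0.082 to 0.26 (Rplp2), -0.041 to 0.29 (Rpl5), -0.16 to 0.28 (Rpl11), -0.067 to 0.23 (Rpl22), -0.11 to 0.17 (Rpl10), -0.11 to 0.14 (Rps19), -0.22 to 0.15 (Rps27) and -0.025 to 0.35 (Rps4l). Rps2 was also positive with median-of-ratios scaling (0.0056), DESeq2 (0.011) and copies added (0.0074), and Rps19 was -0.00034 with quantile normalization. The replicate block changed no call of a member. Pseudocount, filter and test do not alter the summed level, which was recomputed under the scalings and without each library. Without anti-PD-1 replicate 3 or isotype control replicate 2, the mean summed level was slightly lower with anti-PD-1 than with the isotype control.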
